A study of Homo sapiens with 12 samples.

Results

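Described here are 9 genes by which a cell can pass nucleosides or nucleotides across its membranes or break them down outside: the equilibrative nucleoside transporters SLC29A1, SLC29A2, SLC29A3 and SLC29A4, the ABC exporters ABCC4, ABCC5 and ABCG2, and the ectonucleotidases NT5E and ENTPD1. They were found by symbol among the 61541 genes of the count table, and each had enough counts to be tested, along with 16768 genes in all. RNA was sequenced from cells labelled A549, an established line from a human lung adenocarcinoma, taken 14 days after transduction, in 4 groups of 3 libraries. Control cells carried the non-targeting guide gNTC1, and knockout cells (TS-KO) carried Cas9 editing of TYMS, which encodes the enzyme thymidylate synthase, the source of newly made thymidylate for DNA. Each kind of cell was grown alone or in co-culture, and all 12 libraries are labelled as having had no treatment. The series text gives parental A549 as the partner of the knockout cells in co-culture and says that their growth was restored in its presence. Which partner the control cells had, whether partners were separated before RNA was taken, and whether the knockout was a clone or a mixed population are not given in the sources used here. The labels also do not say that libraries of a group came from separate cultures, so the p-values measure the spread between these libraries, which may be technical.

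Nucleosides are too polar to cross a membrane freely. The SLC29 family lets them move down their gradient in either direction: SLC29A1 (ENT1) and SLC29A2 (ENT2) at the cell surface, SLC29A3 (ENT3) mainly in lysosomes, and SLC29A4 (PMAT), which prefers organic cations such as monoamines and carries adenosine. Nucleotides are charged and leave cells by other routes, among them the ATP-driven pumps ABCC4 (MRP4), ABCC5 (MRP5) and ABCG2 (BCRP), which export cyclic nucleotides or nucleoside monophosphate analogues and a wide range of drugs. Outside the cell, ENTPD1 (CD39) cleaves ATP and ADP to AMP, and NT5E (CD73) cleaves AMP and other nucleoside monophosphates, thymidylate included, to nucleosides that the SLC29 carriers can take up. Cells that lack thymidylate synthase can make thymidylate only from thymidine, and these genes are candidate routes by which such metabolites could move between cells in co-culture. The libraries measure RNA, not transport.

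Library totals ran from 14921371 to 35723762 counts. TYMS lay at 90.3 to 101 CPM, the count of a gene relative to the TMM-scaled total of its library, in the 6 libraries labelled control and at 10.7 to 21.4 CPM in the 6 labelled knockout. Within the knockout it stood at 20.3 to 21.4 CPM alone and at 10.7 to 11.4 CPM in co-culture. The libraries differed in more than the targeted gene. A549 is known to lack CDKN2A and MTAP through a homozygous deletion, yet CDKN2A lay at 54.7 to 116 CPM and MTAP at 43.8 to 79.5 CPM in the libraries labelled control, against 0 to 0.119 and 0.302 to 0.647 CPM in those labelled knockout. On this point the libraries labelled control go against their cell line label. A difference between knockout and control therefore cannot be told apart from a difference between the cells used, and "control" below means the libraries labelled so. The surface marker EPCAM split the same way (94.4 to 119 CPM in control, 0.149 to 0.913 CPM in knockout). The keratin KRT8 was abundant in all 12 libraries but lower in the knockout (2364 to 4180 CPM) than in the control (5413 to 9110 CPM). KRT19 and CDH1 were also lower in every knockout library, and KRT18 was lower with overlap. KRT7 went the other way, at 1213 to 2531 CPM in control and 4396 to 7409 CPM in knockout. The summed level of 5 lung epithelial markers was 1.10 to 2.37 CPM, with the surfactant gene SFTPA1 at 0 in every library. A list of 9 markers of the KEAP1-mutant A549 programme was expressed in both cell kinds. It summed to 6828 to 8586 CPM in the control libraries and 16012 to 17228 CPM in the knockout libraries. Transcript GC content also set libraries apart: the rank correlation across genes between a library's deviation from its group mean and GC content ranged from -0.843 in replicate 3 of the knockout co-culture to 0.830 in its replicate 2. Replicate 1 of that group stood at 0.558, so replicate 3 stands apart from the others of its group. Each other group also held a library well below 0, at -0.756 and -0.644 in the control monoculture and co-culture and -0.689 in the knockout monoculture. Differences of the 9 genes in the knockout co-culture are given below without replicate 3 as well. Leaving it out leaves that group only libraries above 0, so its GC balance then differs from that of the other groups.

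Co-culture and monoculture libraries of each cell kind were compared to ask whether the routes changed in the presence of other cells, and knockout and control libraries to ask what differed with the knockout. A gene was called when its adjusted p-value from edgeR's quasi-likelihood test was under 0.05. Between the knockout and control monocultures, 7 of the 9 genes were called, where 56.6% of all genes tested were. In the knockout 4 of them were higher (28.0% of all genes) and 3 lower (28.6%). In the knockout co-culture against the knockout monoculture, 1 of the 9 was called, ABCC4, which fell, where 11.4% of all genes were called, 5.97% higher and 5.40% lower. Between knockout and control co-culture, 5 were called, 3 higher and 2 lower, against 49.4% of all genes, 24.1% higher and 25.3% lower. None was called between co-culture and monoculture of control cells by edgeR, nor by DESeq2, and none had an unadjusted p under 0.05; over all genes the share called was 0. The median log2 fold change of the 9 genes was 0.47 in the knockout against control in monoculture, beside 0.09 over all genes, and -0.19 in the co-culture against the monoculture of knockout cells, beside 0.01. The members thus moved in both directions between the cell kinds, and in shares that are read here only against these background shares.

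**Figure D1:**
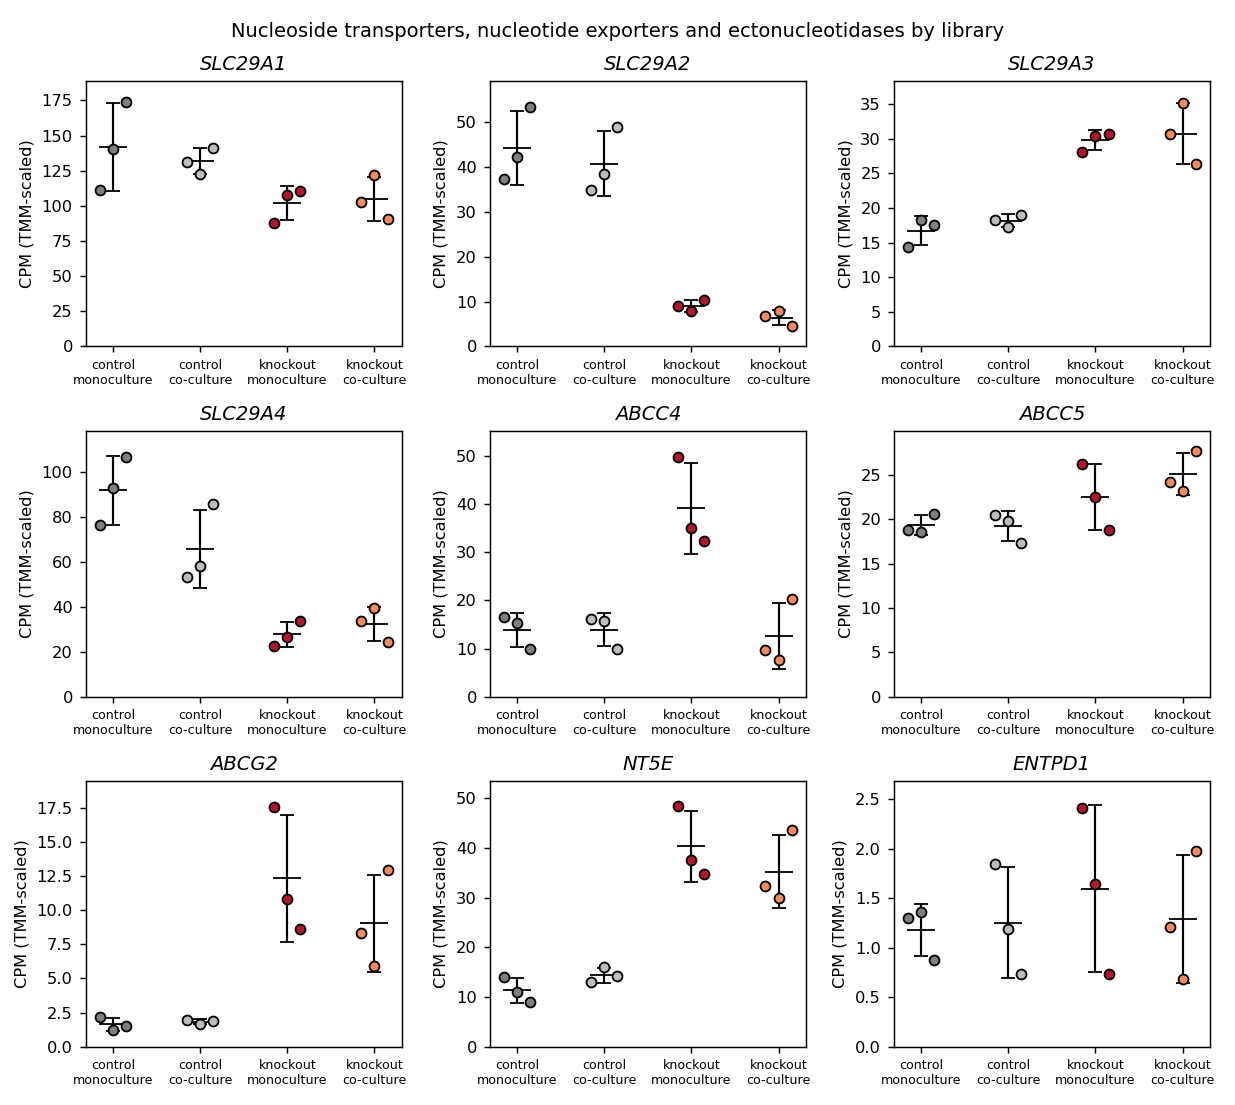
Each panel plots 1 gene on a linear axis of TMM-scaled CPM from 0, with 1 point per library in the 4 groups (replicates 1 to 3 from left to right), a horizontal mark at the mean and bars of ± 1 SD (n = 3). SLC29A2 and SLC29A4 are low in both knockout groups, ABCG2 and NT5E are high in both, and ABCC4 is high in the knockout monoculture only, where its 3 libraries lie between 32.4 and 49.9 CPM.

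SLC29A2 (ENSG00000174669; GRCh38 chromosome 11, 66362521 to 66372214, minus strand) had the largest difference between knockout and control of the 4 SLC29 genes. ENT2 takes up purine and pyrimidine nucleosides and also nucleobases. Its libraries held 37.3, 42.1 and 53.3 CPM in the control monoculture and 34.9, 38.3 and 48.8 CPM in the control co-culture. They held 8.93, 7.82 and 10.3 CPM in the knockout monoculture and 6.73, 7.93 and 4.66 CPM in the knockout co-culture. All 6 knockout libraries lay below all 6 control libraries, by a gap wider than the spread of either. The log2 fold change was -2.30 (SE 0.22, edgeR adjusted p = 2.72e-06) alone and -2.66 (SE 0.23, edgeR adjusted p = 9.1e-07) in co-culture, which is 4.91-fold and 6.30-fold lower. With GC offsets the values were -1.63 (edgeR adjusted p = 1.94e-08) alone and -2.41 (edgeR adjusted p = 3.18e-10) in co-culture. The offsets remove each library's trend with GC content relative to the mean of all 12 libraries. They thus also remove any part of a difference between groups that follows GC content. In a bulk library, fewer cells that express a gene and less RNA per cell cannot be told apart. The knockout co-culture was lower than the monoculture with log2 fold change -0.48 (SE 0.22), a difference that was not called (edgeR adjusted p = 0.166) and whose libraries overlap. It was called with GC offsets (-0.72, edgeR adjusted p = 0.000767). Exons of SLC29A2 overlap those of AP001107.9 on the other strand, which stood at 1.33 to 2.79 CPM as group means, and the strand setting of the counting is not given in the sources used here.

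SLC29A1 (ENSG00000112759; chromosome 6, 44219505 to 44234151, plus strand) encodes the main equilibrative nucleoside carrier of most cells. It was the most abundant of the 9 per length in every group. Levels were 111, 140 and 174 CPM in the control monoculture, and 131, 123 and 141 CPM in the control co-culture. In the knockout monoculture they were 88.0, 108 and 110 CPM, and in the knockout co-culture 102, 122 and 90.5 CPM. The monoculture groups only just fail to overlap, with the highest knockout library next to the lowest control library. The knockout monoculture was lower with log2 fold change -0.48 (SE 0.17, edgeR adjusted p = 0.0326). That call was lost with GC offsets (-0.08, edgeR adjusted p = 0.418) and when replicate 2 or 3 of the control monoculture or replicate 1 or 2 of the knockout monoculture was left out (edgeR adjusted p = 0.0571 to 0.126). In co-culture the difference was -0.33 (SE 0.17, edgeR adjusted p = 0.136), and it was called with GC offsets (-0.21, edgeR adjusted p = 0.0257), by library size only (edgeR adjusted p = 0.0206) and without replicate 2 of the knockout co-culture (edgeR adjusted p = 0.0472). Co-culture itself gave 0.04 in the knockout, with an interval of ± 2 SE from -0.30 to 0.39 (edgeR adjusted p = 0.89).

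Since SLC29A1 and SLC29A2 reside on the same membrane, the ratio of their RNA levels within a library is given as a description, and both have GC-rich transcripts (56.9% and 61.1% GC). Per length, SLC29A1 exceeded SLC29A2 by 1.97 ± 0.116 times (SD, n = 3) in the control monoculture and 2.03 ± 0.274 times (SD, n = 3) in the control co-culture. The ratio was 7.06 ± 1.26 (SD, n = 3) in the knockout monoculture, with libraries at 6.08, 8.49 and 6.62. It was 10.3 ± 1.46 (SD, n = 3) in the knockout co-culture, with libraries at 9.40, 9.49 and 12. The ratio in each knockout co-culture library was above that in each knockout monoculture library, and both groups lay above the control libraries. SLC29A2 made up 24% and 25% of the summed per-length level of the 4 SLC29 genes in the control monoculture and co-culture, and 9.08% and 6.27% in the knockout monoculture and co-culture.

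SLC29A4 (ENSG00000164638; chromosome 7, 5274369 to 5306870, plus strand) was also lower in the knockout. Libraries of the control monoculture held 76.4, 92.8 and 107 CPM, and those of the control co-culture 53.5, 58.2 and 85.8 CPM. The knockout monoculture held 22.6, 26.6 and 33.9 CPM and the knockout co-culture 33.6, 39.5 and 24.3 CPM. The knockout libraries were low throughout and did not overlap either control group. The difference was -1.73 (SE 0.24, edgeR adjusted p = 4.7e-05) on the log2 scale alone and -1.02 (SE 0.23, edgeR adjusted p = 0.00257) in co-culture, and with GC offsets it was -1.15 and -0.80, both called. The control co-culture and monoculture libraries overlapped (-0.48, SE 0.23, edgeR adjusted p = 1). Co-culture gave 0.23 in the knockout (SE 0.23, edgeR adjusted p = 0.525). The interaction, the co-culture difference in knockout minus that in control, was 0.71 (SE 0.32, edgeR adjusted p = 0.261), and it was called only without replicate 3 of the knockout co-culture (0.89, edgeR adjusted p = 0.0437) among the alternatives run. Exons of SLC29A4 overlap those of TNRC18 on the opposite strand, which had group means of 255 to 348 CPM and was lowest in the knockout monoculture, so part of the SLC29A4 counts could belong to it.

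SLC29A3 (ENSG00000198246; chromosome 10, 71319258 to 71381423, plus strand) was higher in the knockout, where SLC29A2 and SLC29A4 were lower. SLC29A1 was lower there too, by a small difference that was called in monoculture only and not with GC offsets there. ENT3 releases nucleosides from lysosomes after nucleic acids are broken down there. Its levels were 14.3, 18.2 and 17.5 CPM in the control monoculture and 18.2, 17.3 and 19.0 CPM in the control co-culture. They were 28.1, 30.4 and 30.7 CPM in the knockout monoculture and 30.7, 35.1 and 26.3 CPM in the knockout co-culture. Every knockout library was above every control library. The gene was higher in the knockout by 0.83 (SE 0.15, edgeR adjusted p = 0.000491) on the log2 scale alone and by 0.76 (SE 0.15, edgeR adjusted p = 0.00108) in co-culture, and with GC offsets by 1.34 and 0.93, both called. Between co-culture and monoculture of knockout cells the difference was 0.05, with an interval of ± 2 SE from -0.26 to 0.35 (edgeR adjusted p = 0.862). Exons of SLC29A3 overlap those of AL359183.1 on the same strand, which had group means of 0.834 to 1.66 CPM.

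Of the exporters, ABCC4 (ENSG00000125257; chromosome 13, 95019829 to 95301475, minus strand) was the one that differed between co-culture and monoculture of knockout cells. MRP4 pumps out cyclic nucleotides, nucleoside monophosphate analogues and prostaglandins. Its levels were 16.5, 15.2 and 9.84 CPM in the control monoculture and 16.1, 15.7 and 9.91 CPM in the control co-culture. The knockout monoculture held 49.9, 35.2 and 32.4 CPM, and the knockout co-culture 9.79, 7.51 and 20.4 CPM. The knockout monoculture libraries were thus all above the rest, and the knockout co-culture libraries spanned the control range, with replicate 3 above every control library. ABCC4 was higher in the knockout monoculture than in the control monoculture by 1.5 (SE 0.35, edgeR adjusted p = 0.0028) on the log2 scale, or 2.83-fold. It was lower in the knockout co-culture than in the knockout monoculture with log2 fold change -1.64 (SE 0.35, edgeR adjusted p = 0.012), or 3.12-fold. Between knockout and control co-culture the difference was -0.14 (SE 0.34, edgeR adjusted p = 0.754), with an interval of ± 2 SE from -0.83 to 0.55.

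The fall of ABCC4 in co-culture was called by DESeq2 (-1.61, adjusted p = 2.54e-05) and with GC offsets (-1.31, edgeR adjusted p = 0.000136). It missed the threshold when only the 2 knockout groups were fitted (edgeR adjusted p = 0.0647), without replicate 1 of the knockout monoculture (-1.43, edgeR adjusted p = 0.0592) and without replicate 1 of the knockout co-culture (-1.49, edgeR adjusted p = 0.0744). Without replicate 3 of the knockout co-culture, it was -2.18 and the comparison with the control co-culture became -0.68 (edgeR adjusted p = 0.0498). The libraries then left in the knockout co-culture all have a GC trend above 0. The interaction was -1.64 (SE 0.49) and was not called (edgeR adjusted p = 0.122), although it was called by DESeq2 (-1.59, adjusted p = 0.0185), with GC offsets (-1.20, edgeR adjusted p = 0.0104) and without replicate 3 of the knockout co-culture (-2.18, edgeR adjusted p = 0.00298). The transcript is 43.2% GC, and within each group the library with the lowest GC trend had the highest ABCC4 level. The 2 monoculture and 2 co-culture libraries of the knockout with a trend above 0 had mean levels of 33.8 and 8.65 CPM, a ratio of 3.9. The remaining library of each group, with a trend below 0, had 49.9 and 20.4 CPM, a ratio of 2.45. The trend is taken from each group's own mean, so libraries on the same side of 0 need not share a GC composition between groups. Over all genes, the co-culture log2 fold change in the knockout had a rank correlation of 0.435 with GC content. These ratios therefore do not compare libraries at like GC.

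**Figure D2:**
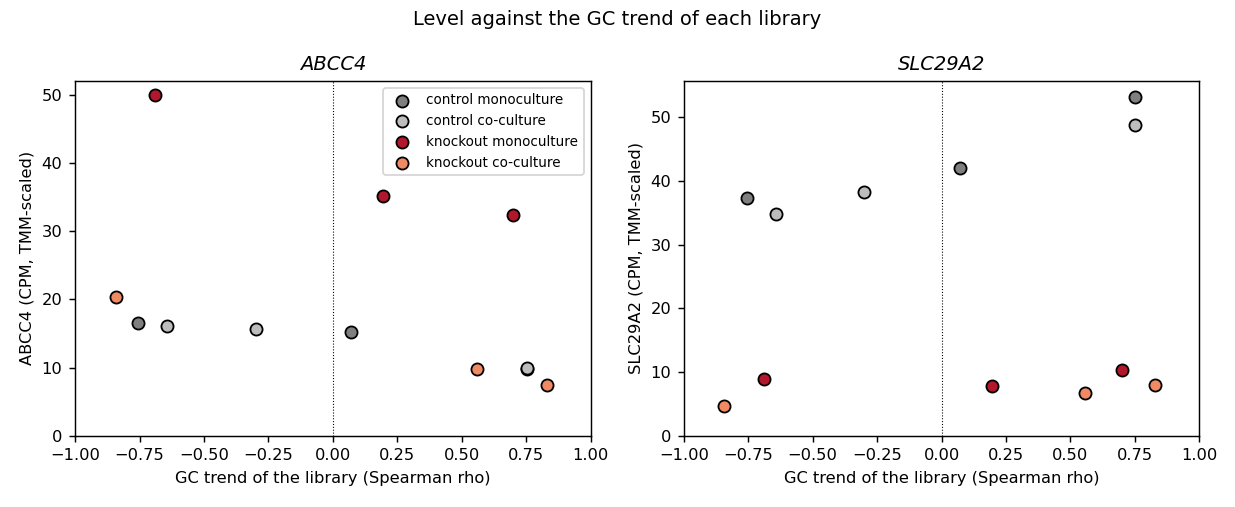
Levels of ABCC4 (left) and SLC29A2 (right) in TMM-scaled CPM are plotted against the GC trend of each library, given as the Spearman correlation across genes of its deviation from the group mean with transcript GC content; each point is 1 of 12 libraries, coloured by group, and replicate 3 of the control monoculture and of the control co-culture coincide for ABCC4. At either end of the GC trend the knockout monoculture lies above the knockout co-culture for ABCC4, at 49.9 against 20.4 CPM on the left and at 32.4 against 9.79 and 7.51 CPM on the right. The trend is relative to each group's own mean, so like positions do not mean like GC composition between groups.

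ABCG2 (ENSG00000118777; chromosome 4, 88090264 to 88231322, minus strand) had the largest rise among the 9. BCRP exports nucleoside monophosphates, folates and many cytotoxic drugs. It was scarce in the control, at 2.17, 1.23 and 1.53 CPM alone and 1.96, 1.65 and 1.92 CPM in co-culture, which is 20 to 47 counts per library. It stood at 17.5, 10.8 and 8.64 CPM in the knockout monoculture and at 8.32, 5.90 and 12.9 CPM in the knockout co-culture. The lowest knockout library was well above the highest control library, while the 2 knockout groups overlapped. The rise was 2.91 (SE 0.36, edgeR adjusted p = 2.37e-05) on the log2 scale alone and 2.30 (SE 0.35, edgeR adjusted p = 0.000139) in co-culture, or 7.5-fold and 4.91-fold. Co-culture gave -0.45 in the knockout, with an interval of ± 2 SE from -1.09 to 0.19 (edgeR adjusted p = 0.365), and 0.05 with GC offsets. Without replicate 3 of the knockout co-culture it was -0.80 (edgeR adjusted p = 0.0553), and without replicate 1 of the knockout monoculture -0.11 (edgeR adjusted p = 0.898).

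ABCC5 (ENSG00000114770; chromosome 3, 183919934 to 184018015, minus strand) had the smallest difference of the 3 exporters between the monoculture groups. MRP5 exports cyclic nucleotides and pyrimidine nucleotide analogues. It lay at 18.8, 18.5 and 20.6 CPM in the control monoculture, at 20.5, 19.9 and 17.4 CPM in the control co-culture, at 26.2, 22.5 and 18.8 CPM in the knockout monoculture, and at 24.2, 23.2 and 27.7 CPM in the knockout co-culture. The monoculture groups overlapped and the co-culture groups did not. The log2 fold change was 0.22 alone (SE 0.16, edgeR adjusted p = 0.249) and 0.38 in co-culture (SE 0.16, edgeR adjusted p = 0.0602). The latter was called by DESeq2 (adjusted p = 0.0174), with DESeq2's size factors in edgeR (adjusted p = 0.0403) and with GC offsets (edgeR adjusted p = 0.0414).

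NT5E (ENSG00000135318; chromosome 6, 85449584 to 85495791, plus strand), the ectoenzyme that turns AMP into adenosine, was higher in the knockout. Control libraries held 13.9, 11.1 and 8.96 CPM alone and 13.1, 16 and 14.1 CPM in co-culture. Knockout libraries held 48.4, 37.6 and 34.8 CPM alone and 32.3, 29.9 and 43.5 CPM in co-culture. The lowest knockout library was above the highest control library. The rise was 1.83 (SE 0.21, edgeR adjusted p = 1.11e-05) on the log2 scale alone and 1.29 (SE 0.20, edgeR adjusted p = 0.000191) in co-culture, or 3.56-fold and 2.44-fold. Co-culture gave -0.19 in the knockout, with an interval of ± 2 SE from -0.59 to 0.21 (edgeR adjusted p = 0.539). In the control it gave 0.35 (SE 0.21, edgeR adjusted p = 1).

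ENTPD1 (ENSG00000138185; chromosome 10, 95711779 to 95869695, plus strand), which acts a step before NT5E, was near the lower end of what could be tested. Its libraries held 1.3, 1.4 and 0.87 CPM in the control monoculture, 1.8, 1.2 and 0.73 CPM in the control co-culture, 2.4, 1.6 and 0.73 CPM in the knockout monoculture, and 1.2, 0.69 and 2.0 CPM in the knockout co-culture, or 12 to 57 counts each. All groups overlapped. The log2 fold change of the knockout monoculture against the control monoculture was 0.47 (SE 0.49, edgeR adjusted p = 0.424) and turned to -0.03 with GC offsets, and no difference was detectable at this depth. Its exons overlap ENTPD1-AS1 on the other strand, whose group means of 1.5 to 2.0 CPM were as high as those of ENTPD1.

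**Figure D3:**
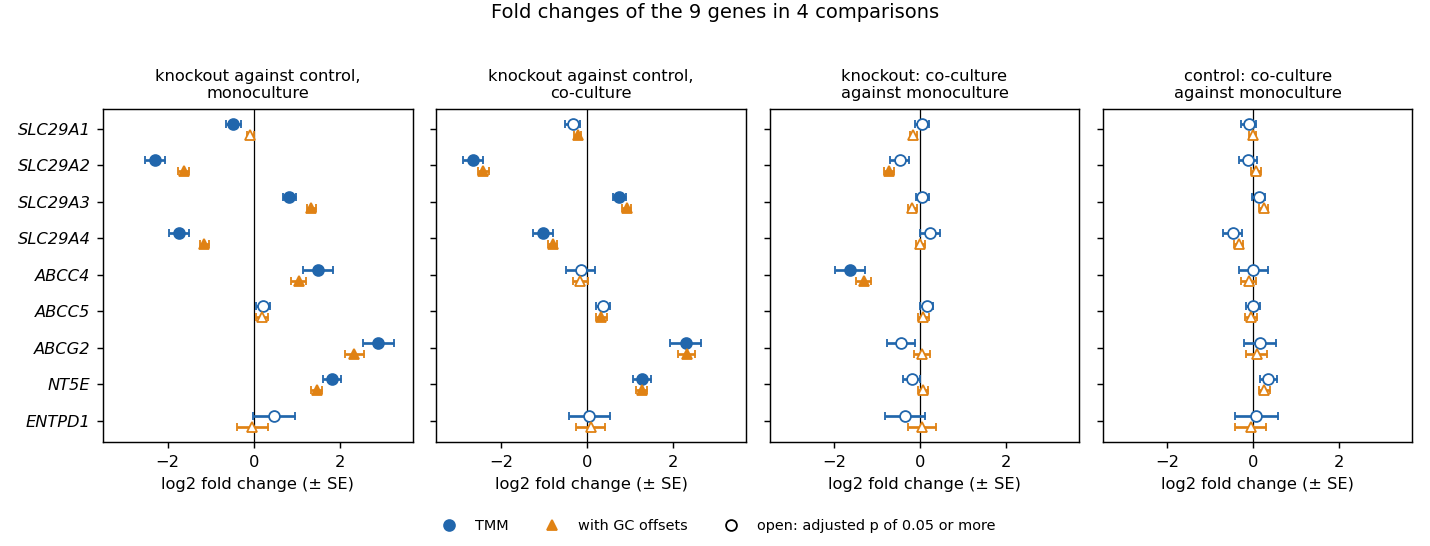
Log2 fold changes of the 9 genes are plotted in 4 panels, 1 per comparison, with bars of ± 1 SE; circles are the TMM fit and triangles the fit with GC offsets, filled where the edgeR adjusted p is under 0.05. Only ABCC4 has a filled circle in the third panel (-1.64), and SLC29A2 has a filled triangle there (-0.72).

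Over all 9 genes, groups of libraries did not overlap in 7 genes between knockout and control monoculture (background 65.2% of all genes tested), in 1 between co-culture and monoculture of knockout cells (31.5%), in 7 between knockout and control co-culture (55.4%) and in 0 between co-culture and monoculture of control cells (7.39%). Without replicate 3 of the knockout co-culture, the differences between knockout and control co-culture were -0.23 for SLC29A1, -2.47 for SLC29A2, 0.86 for SLC29A3, -0.85 for SLC29A4, 1.95 for ABCG2, 0.31 for ABCC5, 1.11 for NT5E and -0.39 for ENTPD1, and those of SLC29A2, SLC29A3, SLC29A4, ABCG2 and NT5E were called. Between co-culture and monoculture of knockout cells they were 0.14 for SLC29A1, -0.29 for SLC29A2, 0.15 for SLC29A3, 0.41 for SLC29A4, 0.08 for ABCC5, -0.37 for NT5E and -0.81 for ENTPD1, and none of these 7 was called. With 3 libraries a group, an exact two-sided permutation test of 1 gene cannot give a p below 0.1. Between co-culture and monoculture of control cells the 9 log2 fold changes ran from -0.48 (SLC29A4) to 0.35 (NT5E). None of the 9 was called in the interaction by edgeR, where 1.80% of all genes were. At an unadjusted p under 0.05 there were 2, by DESeq2 1 (ABCC4) and with GC offsets 2 (ABCC4 and SLC29A2, the latter at -0.78, edgeR adjusted p = 0.0114, against -0.36 without them). Over all 16768 genes tested, these counts in the interaction were 3135, 830 and 1427 in the same order.

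The order of the genes by CPM per kilobase of exon differed between the cell kinds. The length used is that of all annotated exons of a gene, not that of the transcripts expressed. Transcript GC content (41.2% for ABCG2 to 61.1% for SLC29A2) and overlapping exons can also shift levels between genes. The order is therefore a description. In the control monoculture SLC29A1 led at 32.2, followed by SLC29A2 at 16.3 and SLC29A4 at 15.8, whose libraries overlapped. SLC29A3 (3.07) and NT5E (2.50) came next and overlapped, as did ABCC5 (1.69) and ABCC4 (1.61), and ABCG2 (0.326) and ENTPD1 (0.169) closed the order without overlap. The control co-culture had the same order of means. In the knockout monoculture SLC29A1 led at 23.1, NT5E was next at 8.89, and ENTPD1 was last at 0.229. Between them SLC29A3 (5.47), SLC29A4 (4.77), ABCC4 (4.53), SLC29A2 (3.31), ABCG2 (2.44) and ABCC5 (1.97) each overlapped their neighbour in the order. In the knockout co-culture SLC29A1 (23.8), NT5E (7.77) and then SLC29A3 (5.64) with SLC29A4 (5.58) stood apart from SLC29A2 (2.37), ABCC5 (2.19), ABCG2 (1.79) and ABCC4 (1.45), each of which overlapped its neighbour. NT5E thus moved from the fifth to the second place and SLC29A2 from the second to a lower one between control and knockout.

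Promoter sequence is shown for the genes whose RNA differed between knockout and control monoculture, that have a single start in RefSeq, and of whose window at most 30 bases lie in an exon of the GENCODE annotation. Entries were found for 8 of the 9 genes in RefSeq's promoter table on GRCh38.p14. Each window is the 250 bases before the start, written 5′ to 3′ on the gene's strand. Capitals mark matches on either strand to GGGCGG (known as the GC box), to CCAAT (named for its letters), to TATAAA (known from TATA-box promoters), to CACGTG (one form of the E-box), to TGACTCA (the consensus of the AP-1 factors), TGACGTCA (a cyclic AMP response element) and TGACNNNGC (the core of an antioxidant response element). The windows are those of SLC29A3 at chr10:71319009-71319258 on the plus strand, SLC29A4 at chr7:5282693-5282942 on the plus strand and ABCC4 at chr13:95301452-95301701 on the minus strand. The SLC29A4 window lies inside the GENCODE span of the gene, so its RefSeq start is downstream of the GENCODE gene start.
SLC29A3: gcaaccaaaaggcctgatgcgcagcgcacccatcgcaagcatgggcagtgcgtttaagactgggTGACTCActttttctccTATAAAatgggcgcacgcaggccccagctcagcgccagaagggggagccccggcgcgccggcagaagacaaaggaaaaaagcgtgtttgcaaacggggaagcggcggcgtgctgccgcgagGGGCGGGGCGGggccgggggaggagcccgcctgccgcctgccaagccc
SLC29A4: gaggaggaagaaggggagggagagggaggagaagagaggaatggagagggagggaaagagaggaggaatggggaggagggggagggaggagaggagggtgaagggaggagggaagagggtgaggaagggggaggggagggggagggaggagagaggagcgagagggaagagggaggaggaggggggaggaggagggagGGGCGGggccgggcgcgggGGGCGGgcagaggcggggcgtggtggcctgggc
ABCC4: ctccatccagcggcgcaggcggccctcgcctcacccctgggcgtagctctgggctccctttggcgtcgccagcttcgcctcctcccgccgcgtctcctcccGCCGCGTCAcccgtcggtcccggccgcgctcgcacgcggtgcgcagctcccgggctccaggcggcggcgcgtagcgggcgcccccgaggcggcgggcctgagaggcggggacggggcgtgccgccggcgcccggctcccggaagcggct
The motifs were chosen after the sequences could be seen, and a match is a string of letters, not evidence that a factor binds. SLC29A3 holds the AP-1 consensus, the TATA box letters and 2 overlapping GC boxes. TGACTCA is in 4.2% and TATAAA in 10.7% of all 35116 windows of this length. SLC29A4 holds 2 GC boxes, a motif found in 42.6% of windows, after a long run of purines. ABCC4 holds TGACNNNGC, found in 10.9% of windows, in a window of 80.4% GC, against a median of 58.0% over all windows and 66.4% and 70.4% in the other 2 shown. Promoter and transcript thus differ in composition for ABCC4, whose transcript is 43.2% GC.

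For each of the 9 genes, the most alike genes were those with the smallest root mean square difference of centred log2 CPM over the 12 libraries, among 15591 genes with a symbol. This likeness includes whatever the libraries share, their GC trend among it, and is given as a description. SLC29A2 was closest to PALD1 (0.145) and FASN (0.157), the fatty acid synthase, which fell from 3422 CPM in the control monoculture to 656 CPM in the knockout monoculture and 551 CPM in the knockout co-culture. ABCC4 was closest to ANO6 (0.109), a phospholipid scramblase, and TJP1 (0.112), a tight junction scaffold. TJP1 had group means of 44.0 and 39.6 CPM in the control monoculture and co-culture, 119 CPM in the knockout monoculture and 41.5 CPM in the knockout co-culture, so that the knockout monoculture stands above 3 groups that lie close together, as for ABCC4. SLC29A1 was closest to ELAC2 (0.0649) and NUDCD3 (0.0675), SLC29A3 to LASP1 (0.0599) and ABR (0.0818), and SLC29A4 to PFKL (0.0887), a phosphofructokinase subunit, and PTOV1 (0.103). ABCC5 was closest to TEP1 (0.0945) and SEPTIN8 (0.0954), NT5E to FEZ2 (0.0963) and NETO2 (0.121), ABCG2 to SLC35F5 (0.223) and TDRP (0.235), and ENTPD1 to ZNF548 (0.217) and PTPDC1 (0.227). ABCG2 and ENTPD1 had the largest distances. Counts of ENTPD1 were low in every group and those of ABCG2 in the control groups, and the cause of these distances was not tested.

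Other genes of the same pathway were followed in 4 lists. Of 18 other carriers of nucleosides, nucleobases and nucleotides, 14 were tested, and 7 were called between knockout and control monoculture, 2 higher and 5 lower, where 56.6% of all genes were called, 28.0% higher and 28.6% lower. The concentrative nucleoside transporters SLC28A1, SLC28A2 and SLC28A3, which drive uptake with sodium, were not tested, since they reached at most 5 counts (0.273 CPM) in any of the 12 libraries. SLC17A9, the vesicular nucleotide transporter, had a mean of 16.3 CPM in the control monoculture and 0 in the knockout monoculture, and was at least 106-fold lower when each knockout library is set to 3 counts. SLC43A3, a purine nucleobase carrier, went from 15.5 to 0.0141 CPM and was at least 102-fold lower by the same floor. In co-culture both were likewise at least 131-fold and 134-fold lower, with means of 0.0124 and 0.0392 CPM in the knockout co-culture. SLC25A33, which carries pyrimidine nucleotides into mitochondria, fell from 23.0 to 7.26 CPM (log2 fold change -1.67, edgeR adjusted p = 9.04e-06). SLC22A4, a carrier of ergothioneine, was the 1 carrier of this list called between co-culture and monoculture of knockout cells, at 8.0 CPM alone and 13 CPM in co-culture (0.70, edgeR adjusted p = 0.0352), and it missed the threshold when any 1 of 6 libraries was left out (edgeR adjusted p = 0.0520 to 0.177), with library size only (0.0885), with the 2 groups alone (0.0877) and with a replicate block (0.0764).

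Of 10 other ABC exporters, 8 were tested. In the knockout monoculture 3 were higher and 1 lower than in the control monoculture, and in co-culture 5 were higher and 1 lower. Over all genes these shares were 28.0% higher and 28.6% lower in monoculture and 24.1% higher and 25.3% lower in co-culture. ABCC1 (MRP1), which exports glutathione conjugates, rose from 183 ± 6.03 to 471 ± 11.2 CPM (SD, n = 3; log2 fold change 1.37, edgeR adjusted p = 5.2e-07). ABCC2 (MRP2), a pump of conjugated anions, rose from 54.5 ± 13.4 to 218 ± 40.8 CPM (SD, n = 3; 2.0, edgeR adjusted p = 5.52e-05), and ABCC3 from 300.2 ± 46.3 to 475 ± 15.5 CPM (SD, n = 3; 0.66, edgeR adjusted p = 0.00386). None was called between co-culture and monoculture of knockout cells by edgeR, with 2 at an unadjusted p under 0.05 and 2 called by DESeq2. Over all 16768 genes tested, edgeR called 11.4% there, 5053 had an unadjusted p under 0.05 and DESeq2 called 3347. ABCC2 lay at 125 ± 50.2 CPM (SD, n = 3) in the knockout co-culture, lower than in the knockout monoculture in every library (-0.81, edgeR adjusted p = 0.0686).

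Among 23 other enzymes of nucleotide and nucleoside breakdown, 15 were tested and 9 were called between knockout and control monoculture, 5 higher and 4 lower, a share close to the 56.6% of all genes called there. ENTPD2, an ectoenzyme that removes phosphate from ATP, was at 27.2 ± 5.50 CPM (SD, n = 3) in the control monoculture and 0.282 ± 0.0579 CPM (SD, n = 3) in the knockout monoculture (log2 fold change -6.56, edgeR adjusted p = 4.89e-09; -5.75 with GC offsets). ENPP5 went from 1.22 to 0.0282 CPM, at least 8.01-fold lower. ALPL, the tissue-nonspecific alkaline phosphatase, rose from 0.473 to 1.38 CPM (1.53, edgeR adjusted p = 0.000833), at 6 to 29 counts per library. Of the ectoenzymes of ATP and AMP named here, ENTPD2 was thus lower and NT5E and ALPL higher in the knockout monoculture, while ENTPD1 was not called (0.47, edgeR adjusted p = 0.424). PNP, which splits purine nucleosides into base and sugar phosphate, was at 113 CPM in the control monoculture and 114 CPM in the knockout monoculture, and rose to 197 ± 20.8 CPM (SD, n = 3) in the knockout co-culture (0.80, edgeR adjusted p = 0.00412). ENTPD5, which acts on nucleoside diphosphates in the endoplasmic reticulum, fell from 13.4 to 7.68 CPM in co-culture (-0.81, edgeR adjusted p = 0.0462), and in 14 of the 20 alternatives it missed the threshold (edgeR adjusted p up to 0.189).

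Receptors that sense extracellular nucleosides and nucleotides were the last list. Of 19, 9 were tested, and 7 were called between knockout and control monoculture, 3 higher and 4 lower, beside the 56.6% called over all genes. The adenosine receptors ADORA1 and ADORA2B fell from 18.6 to 2.34 CPM (log2 fold change -3.00, edgeR adjusted p = 1.13e-06; -2.38 with GC offsets) and from 41.3 to 8.0 CPM (-2.37, edgeR adjusted p = 2.12e-07). P2RY6, the UDP receptor, rose from 6.08 to 28.1 CPM (2.21, edgeR adjusted p = 2.37e-05). P2RX4, an ATP-gated channel, had 38.2 CPM in the control monoculture, 18.9 ± 1.86 CPM (SD, n = 3) in the knockout monoculture and 35.2 ± 5.49 CPM (SD, n = 3) in the knockout co-culture. It was the receptor called between co-culture and monoculture of knockout cells (0.90, edgeR adjusted p = 0.00898), and without replicate 1 of the knockout monoculture its edgeR adjusted p was 0.0519. None of the genes of the 4 lists was called between co-culture and monoculture of control cells or in the interaction by edgeR. At an unadjusted p under 0.05 the lists had 1, 1, 0 and 0 genes between the controls, in the order given, beside 540 of all genes. In the interaction they had 1, 2, 2 and 2, beside 3135 of all genes. DESeq2 called 0 between the controls and 1 carrier in the interaction, where it called 830 of all genes. Between co-culture and monoculture of knockout cells, where 11.4% of all genes were called, edgeR called 1, 0, 2 and 1 genes of the lists. With GC offsets it called 3, 2, 5 and 3 there, and 4887 of all 16768 genes tested. In the interaction, edgeR with GC offsets called 1 receptor, P2RX4 (1.19, edgeR adjusted p = 0.0479), and 1427 of all genes.

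**Figure D4:**
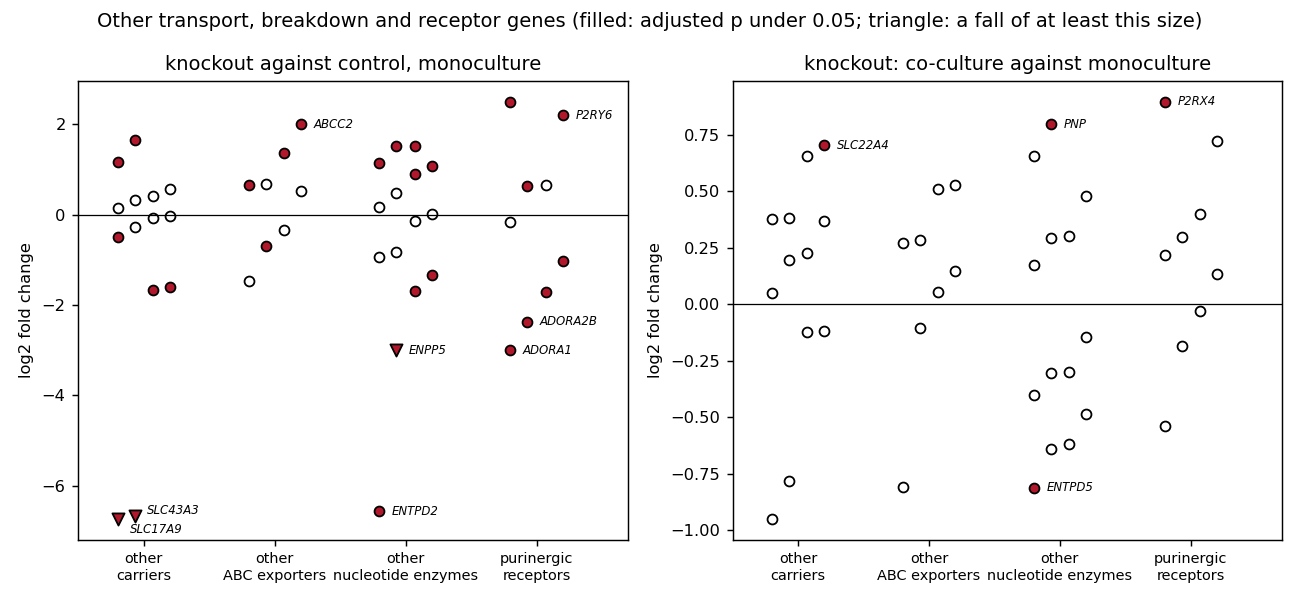
Log2 fold changes of the tested genes of the 4 other lists are plotted for the knockout monoculture against the control monoculture (left) and the co-culture against the monoculture of knockout cells (right), 1 point per gene, filled where the edgeR adjusted p is under 0.05; triangles are genes at 3 counts or fewer in each knockout library, drawn at the smallest fall that this floor allows, and the 3 genes at that floor in both knockout groups are left out on the right. On the left 27 genes are filled and spread to both sides of 0, and on the right 4 genes are filled: SLC22A4, PNP and P2RX4 above 0 and ENTPD5 below it.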

How the data were processed

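Bulk RNA was sequenced from 12 libraries, 3 in each of 4 groups, and assigned to groups by each library's own title. The authors deposited raw counts in 1 table, with a row per Ensembl gene. Per the submitters' processing notes the tools named are FastQC, STAR 2.7.9a, featureCounts, R 4.2.1 and DESeq2 1.36.0 with the build GRCh38/hg38; the annotation release and strand setting are not given in the sources used here. Per the labels' protocols, RNA came from the miRNeasy kit and libraries from the NEBNext Ultra RNA kit. Symbols were matched for 42045 of 61541 gene identifiers, and positions, exon lengths and GC content came from GENCODE 29 (GRCh38), which held 58366 of them.

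Deposited counts went into edgeR 4.0.16 (R 4.3.3): filterByExpr, TMM scaling, 1 model of 4 group means with all libraries, and the robust quasi-likelihood F-test. P-values were adjusted by Benjamini-Hochberg over all 16768 genes tested in each of 5 comparisons, and the threshold was 0.05. CPM are TMM-scaled. The biological coefficient of variation was 22.1%. Before TMM scaling, 1 CPM in the shallowest library is 14.9 counts, so genes below about 1 CPM are limited by counting error, and floors of 3 counts cover counting error only. Chi-square statistics between replicates were 8.79 to 134 per gene, so that no pair was a repeated library. The code was tested on simulated counts in which 200 genes were changed between knockout and control monoculture. It called 30% of the 100 genes changed 2-fold, 76% of the 100 changed 4-fold and 6 unchanged genes. These shares belong to that simulation and are not the power of the comparisons above.

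GC offsets were fitted per library by a lowess curve (span 0.3) of log2 CPM deviations from the mean of all libraries on GC content. They entered the same edgeR model as known values, so the error of the curve is not counted in the SE. Over all genes, log2 fold changes between knockout and control monoculture had a rank correlation of -0.386 with GC content. Between co-culture and monoculture of knockout cells it was 0.435. Whether these trends are technical was not tested, and the offsets remove them either way. Other alternatives were library size only, DESeq2's size factors in edgeR, DESeq2 1.42.0 (Wald test), no filter on low counts, only the groups compared, a replicate block, and leaving out each library in turn. The 9 genes, the lists and the tests were chosen with earlier results of these data known. Each of the 9 is named; of each other list, the 3 genes with the smallest p in knockout against control alone and in co-cultured against knockout monoculture are named, among those with an adjusted p under 0.05 and at least 1 CPM in the higher group. Promoter sequences are from RefSeq.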

Additional observations from a re-analysis of the deposited data

How the results depend on the processing

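Differences between knockout and control that were called for SLC29A2, SLC29A3, SLC29A4, ABCG2 and NT5E kept their direction and their call in both lone and co-cultured cells under all 20 alternatives. With GC offsets 2 of the 9 genes were called between co-culture and monoculture of knockout cells, with GC offsets and a replicate block 2, with only the groups compared 0, and leaving out each library in turn 0 to 1, against 1 in the fit reported. In the interaction DESeq2 called 1, no filter on low counts 1, GC offsets 2, GC offsets with a replicate block 2, and leaving out each library 0 to 2, against 0. Over all genes, 1907 were called between co-culture and monoculture of knockout cells, and 3347 by DESeq2, 3340 with no filter, 4887 with GC offsets, 4187 with GC offsets and a replicate block, 664 with only the groups compared, 1080 with a replicate block, and 536 to 5680 leaving out each library, the highest without replicate 3 of the knockout co-culture. For the interaction the count of 301 became 830, 1342, 1427, 870 and 179 by DESeq2, no filter, GC offsets, GC offsets with a block and a replicate block, and 119 to 3623 leaving out each library. Between the controls no filter gave 2 genes. The cause of these changes was not tested.

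Signs of small differences turned. In the knockout monoculture against the control monoculture ENTPD1 turned to -0.03 with GC offsets and -0.07 with GC offsets and a block. Between co-culture and monoculture of knockout cells, GC offsets and GC offsets with a block gave -0.16 and -0.16 for SLC29A1, -0.18 and -0.18 for SLC29A3, 0.05 and 0.06 for ABCG2, 0.06 and 0.06 for NT5E, and 0.05 and 0.14 for ENTPD1. Library size only gave -0.02 for SLC29A1 and -0.02 for SLC29A3. Leaving out each library gave -0.09 to 0.14 for SLC29A1, -0.07 to 0.15 for SLC29A3 and -0.81 to 0.09 for ENTPD1. In the co-culture groups leaving out each library gave -0.68 to 0.10 for ABCC4 and -0.39 to 0.40 for ENTPD1. None of these was called in the fit reported. Library size only moved the median of all genes from 0.09 to 0.24 between the monoculture groups and from 0.01 to -0.11 in the interaction. Of the calls between co-culture and monoculture of knockout cells 52.5% were higher in co-culture, 69.6% with library size only and 71.5% with only the groups compared.

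The replicate numbers did not pair the libraries: same-numbered libraries correlated at -0.892 to 0.801 in their deviations, 8 of 18 pairs were above 0.1, and 7 of 18 correlated best with their own number. The replicate block is therefore an alternative only, and it moved the counts of calls to the 1080 and 179 given above. Depth limits ENTPD1, at 12 to 57 counts per library, and ABCG2 in control cells, at 20 to 47.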

Other observations

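Of the enzymes that act on nucleosides after uptake, ADA differed between knockout and control in both culture conditions, and TYMP was called in monoculture and not in co-culture. Both genes were chosen after their values were seen. ADA, which deaminates adenosine, had 55.8 ± 12.2 CPM (SD, n = 3) in the control monoculture and 104 ± 16.9 CPM (SD, n = 3) in the knockout monoculture (log2 fold change 0.90, edgeR adjusted p = 0.00246), and was called under all 20 alternatives. In co-culture the difference was 0.75 (edgeR adjusted p = 0.00875). TYMP, which splits thymidine into thymine and a sugar phosphate, had 78.7 ± 21.9 CPM (SD, n = 3) in the control monoculture and 31.2 ± 5.34 CPM (SD, n = 3) in the knockout monoculture (-1.34, edgeR adjusted p = 0.00276), and was likewise called under all 20, at -0.71 with GC offsets. Between knockout and control co-culture it was -0.35 (edgeR adjusted p = 0.369), with overlapping libraries. In the knockout co-culture TYMP stood at 49.0 ± 15.6 CPM (SD, n = 3), and its libraries overlapped those of the knockout monoculture (0.66, edgeR adjusted p = 0.173). Without replicate 3 of the knockout co-culture that difference was called (0.90, edgeR adjusted p = 0.0221).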
